A study of Mus musculus with 22 samples.

Results

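The immediate early response genes examined here were *Fos*, *Fosb*, *Jun*, *Junb*, *Egr1*, *Atf3*, *Ier2*, *Nr4a1*, *Dusp1* and *Zfp36*, which are 10 of the 33984 genes that could be named in the count files. They were chosen by symbol, and each gene was represented by its annotated transcript with the highest total count. RNA was measured by sequencing in choroid plexus (ChP), the epithelial tissue in the brain ventricles that secretes cerebrospinal fluid, in 14 pools of mice that form 7 groups of 2 pools, called A and B. The conditional model was 3-month-old Otx2 lox/lox mice on the S129 strain, in which Cre recombinase deletes *Otx2*, the homeobox gene needed for ChP formation. Vehicle or Cre-Tat, a Cre protein that enters cells, was injected into both lateral ventricles, and tissue was taken 15 days later from the lateral ventricle (LV) and the fourth ventricle (4V). All 4 groups of this model therefore carried the floxed allele and the surgery, with 5 mice in each pool labelled Cre-Tat and 4 in each pool labelled vehicle. The constitutive model was 4V ChP of B6D2 mice labelled wildtype, Otx2 (+/-) and Otx2 (+/AA), written here as wildtype, Otx2+/GFP and Otx2+/AA. The first and second of these were 3 months old, from 5 wildtype and 4 Otx2+/GFP mice, and the age of the Otx2+/AA mice is not given in the sources used here.

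Immediate early genes are transcribed within minutes of a stimulus without the need for new protein, and their RNA is short-lived. *Fos*, *Fosb*, *Jun* and *Junb* encode the subunits of the AP-1 transcription factor, *Egr1* and *Nr4a1* encode a zinc finger factor and an orphan nuclear receptor, and *Atf3* encodes a stress-induced factor of the ATF family. *Dusp1* encodes a phosphatase that switches MAP kinases off, *Zfp36* encodes tristetraprolin, which binds AU-rich messages and speeds their decay, and *Ier2* encodes a nuclear protein of the early response. The usual inputs to these promoters are SRF with its ETS-family partners and CREB, which lie downstream of MAP kinases and cAMP.

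Total counts were 22750019 to 50088408 per pool. In the conditional model, 14 of 16 files were named with another library number than that of the sample record holding them. Files that share a library number differed by 1.00 to 1.03 times the sampling noise (chi-square over degrees of freedom, 8 pairs), and files attached to runs of one pool differed by 13.2 to 20.5 times, so files were joined by library number and both runs of a pool summed. *Otx2* itself did not follow the labels: it had 385 and 469 CPM (counts scaled to those in named genes and corrected with TMM factors) in the vehicle-labelled pools A and B of LV against 1235 and 1024 in those labelled Cre-Tat, and 385 and 393 against 1202 and 1222 CPM in 4V. It had 361 and 303 CPM in wildtype, 1027 and 885 in Otx2+/GFP and 339 and 356 in Otx2+/AA, so groups are called by their labels throughout. All 8 annotated *Otx2* transcripts were higher in both Cre-Tat pools than in both vehicle pools of each ventricle, and in Otx2+/GFP 7 of 8 were higher than in wildtype and 1, Otx2-206, was lower. Counts per transcript do not separate the deleted part of the gene from the rest, so they do not measure the deletion. In the conditional model the ChPs were also tested for *Otx2* by qPCR in the study, which is not analysed here. The 6 ChP epithelial markers (*Aqp1*, *Kcne2*, *Folr1*, *Kl*, *Clic6*, *Enpp2*) summed to 23080 to 49610 CPM in the 14 pools, and none was at 0 in any group. Nothing in the labels says that the 2 pools of a group are more than separate pools of mice, and errors below are SD over n = 2 pools or the standard error (SE) of edgeR's fit.

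Most of the members are short genes, but the outer annotated limits of *Atf3* and *Dusp1* span 47744 and 56539 bases. Those of *Dusp1* run from 26505590 to 26562128, and the promoter shown for it below lies inside them. The median gene spans 4698 bases against 25881 for the 13207 protein-coding genes with a mean of at least 10 counts per pool, and the representative transcript has a median of 2.5 exons against 9.0. *Jun*, *Junb* and *Ier2* have a single exon, which is 30.0% of the members against 2.45% of those genes. Per kilobase of transcript, *Dusp1* was the highest member with a median over the pools of 9.36 CPM per kb. *Jun* and *Junb* followed at 3.25 and 3.11 CPM per kb, *Zfp36* and *Fos* at 1.96 and 1.89, *Nr4a1*, *Ier2* and *Egr1* at 1.32, 1.20 and 1.17, *Atf3* at 0.482 and *Fosb* at 0.0489. The ranges of neighbours in this order overlapped over the pools, except those of *Dusp1* and *Jun* and of *Atf3* and *Fosb*. The order also moved with the pool, since *Fos* ranged from 0.527 to 12.3 CPM per kb and *Nr4a1* only from 0.782 to 2.09 CPM per kb. *Jun* shares 232 bases of its exon with the antisense transcript *Junos*, which had 22 counts in all against 2701 of *Jun*; the strand setting of the counting is not given in the sources used here.

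Promoter sequences from RefSeq (GRCm38.p6) matched 8 of the 10 members, all but *Egr1* and *Ier2*. The 250 bases before the start are shown for *Fos*, *Junb* and *Jun*, which passed the test in at least one comparison below. For *Dusp1*, the most abundant member, 200 bases are shown, without the last 50, which hold an annotated exon. Each is written 5′ to 3′ on the gene's own strand. Capitals mark the cAMP response element (CRE) TGACGTCA, the CRE half-site TGACG, the GC box GGGCGG and the TATA box TATAAA, each on either strand.
Fos, chr12:85473640-85473889, plus strand: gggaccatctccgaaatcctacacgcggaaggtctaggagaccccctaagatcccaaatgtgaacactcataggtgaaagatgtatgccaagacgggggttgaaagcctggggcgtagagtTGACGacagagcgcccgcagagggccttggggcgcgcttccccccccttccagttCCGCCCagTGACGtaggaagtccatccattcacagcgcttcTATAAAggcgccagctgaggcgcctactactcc
Junb, chr8:84978749-84978998, minus strand: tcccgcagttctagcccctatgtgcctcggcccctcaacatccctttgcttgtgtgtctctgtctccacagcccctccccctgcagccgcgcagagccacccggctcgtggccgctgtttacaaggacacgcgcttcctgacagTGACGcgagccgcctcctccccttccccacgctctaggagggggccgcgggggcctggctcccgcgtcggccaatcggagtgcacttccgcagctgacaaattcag
Jun, chr4:95052223-95052472, minus strand: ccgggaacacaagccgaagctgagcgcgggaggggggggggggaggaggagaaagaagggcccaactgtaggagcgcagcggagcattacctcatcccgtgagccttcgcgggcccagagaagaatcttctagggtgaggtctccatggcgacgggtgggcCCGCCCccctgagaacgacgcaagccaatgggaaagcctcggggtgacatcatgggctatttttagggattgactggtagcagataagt
Dusp1, chr17:26508523-26508722, minus strand: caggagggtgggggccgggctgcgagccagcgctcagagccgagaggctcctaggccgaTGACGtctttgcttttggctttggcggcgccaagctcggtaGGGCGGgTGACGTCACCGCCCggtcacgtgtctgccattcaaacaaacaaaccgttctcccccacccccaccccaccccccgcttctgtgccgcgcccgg

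*Fos* holds CRE half-sites 129 and 66 bases before its start, a GC box at 74 and a TATA box at 33. *Junb* holds a half-site at 106 bases, and *Jun* a GC box at 89 and none of the other motifs. *Dusp1* is the member with a whole CRE, at 143 bases, flanked closely by GC boxes on both sides. Over the 8 matched members, 6 hold a CRE half-site (a whole CRE counts as one) and 7 a GC box, against 17.8% and 32.7% of all 32851 promoters in the table. A TATA box was found in 1 of 8 (12.4% of all), a whole CRE in 1 (1.55%), and the CArG box, the core of the serum response element, in 1, *Zfp36*, 58 bases before its start (1.47%). The AP-1 site TGACTCA was found in none of the 8 (4.46% of all). The search covered only the 250 bases before the start, so a motif of *Fos* or another member farther upstream would be missed. *Egr1* and *Ier2* had no promoter sequence to search. These letters describe the sequence alone.

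In LV ChP, *Fos*, *Egr1*, *Ier2*, *Junb* and *Jun* rose in the pools labelled Cre-Tat. The rise was about 5-fold for the first 3 (fold changes of 5.37, 5.17 and 4.85), 3.15-fold for *Junb* and 1.83-fold for *Jun*. These are 5 of 9 members tested, with 0 lower; over all 15002 genes tested, 2.21% were called higher and 1.03% lower by the quasi-likelihood test of edgeR, Benjamini-Hochberg adjusted p under 0.05. The median log2 fold change was 1.31 over the 9 members and 0.00 over all genes. All 9 fold changes were above 0, and 7 of the 9 had both Cre-Tat pools above both vehicle pools, which 21.3% of the 14624 genes with a mean of at least 10 counts also had.

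*Fos* had 3.25 and 4.08 CPM in the vehicle-labelled pools A and B of LV and 25.9 and 13.3 CPM in those labelled Cre-Tat. The groups did not overlap, and Cre-Tat pool A was 1.95 times pool B. Its log2 fold change was 2.42 ± 0.29 (SE, edgeR, adjusted p = 0.00029). *Egr1* had 4.49 and 6.02 CPM against 37.9 and 16.1 CPM. It shows the same layout as *Fos*, with pool A labelled Cre-Tat highest of all 14 pools for both genes. Its log2 fold change was 2.37 ± 0.32 (SE, edgeR, adjusted p = 0.000885).

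*Junb* had 3.77 and 4.47 CPM against 15.01 and 10.9 CPM, with pools of a group closer together than for *Fos*. Its log2 fold change was 1.65 ± 0.23 (SE, edgeR, adjusted p = 0.00109). *Ier2* was a low gene in the vehicle pools, with 7 and 15 counts (0.334 and 0.746 CPM), and had 79 and 45 counts (3.17 and 2.06 CPM) in the Cre-Tat pools. Its log2 fold change was 2.28 ± 0.49 (SE, edgeR, adjusted p = 0.0201). *Jun* had 5.92 and 6.91 CPM against 13.1 and 10.3 CPM, a log2 fold change of 0.87 ± 0.21 (SE, edgeR, adjusted p = 0.0391). The calls of *Fos*, *Egr1* and *Junb* held with each of the 4 pools left out in turn, but without Cre-Tat pool A the log2 fold change of *Egr1* was 1.63 and that of *Fos* 1.87. *Jun* and *Ier2* lost theirs without Cre-Tat pool A (log2 fold changes 0.70 and 1.95) or without vehicle pool A (0.75 and 1.804). The call of *Jun* was also lost with DESeq2 (adjusted p = 0.0537), with all groups of the run in 1 edgeR fit (adjusted p = 0.0501) and with counts summed over transcripts (adjusted p = 0.0953), the last of which ended that of *Ier2* too (adjusted p = 0.0599).

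The other members of LV ChP did not pass the test. *Atf3* had 0.716 and 0.746 CPM against 1.93 and 1.70 CPM, groups that do not overlap, with a log2 fold change of 1.31 (edgeR, adjusted p = 0.164). *Zfp36* had 4.01 and 4.67 CPM against 7.47 and 6.33 CPM, again without overlap, with a log2 fold change of 0.67 (edgeR, adjusted p = 0.18). *Dusp1* had 25.7 and 13.6 CPM against 32.5 and 22.9 CPM, and *Nr4a1* 4.06 and 3.18 CPM against 4.90 and 3.99 CPM. Both of these overlapped between groups, with log2 fold changes of 0.50 (95% interval 0.00 to 0.99) and 0.30 (−0.24 to 0.84). Without vehicle pool A the log2 fold change of *Dusp1* was 1.03. With the files as attached to the sample records it was −0.53, but each pool then adds files of different libraries. *Fosb* did not pass the filter on low counts in any comparison. It had 0 counts in both LV vehicle pools and 6 and 15 in the Cre-Tat pools. A count of 0 allows up to 3 counts in each library, at most 0.149 CPM. The Cre-Tat mean of *Fosb*, 0.464 CPM, was 3.11 times that limit, and Cre-Tat pool A alone had 0.241 CPM. The ratio leaves out the counting error of the Cre-Tat counts and the spread between pools. Without the filter *Fosb* was called in LV (edgeR, adjusted p = 0.0429), which makes 6 of 10 members, and in no other comparison. Calls over all genes in LV also rose without the filter, from 486 to 874.

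**Figure D1:**
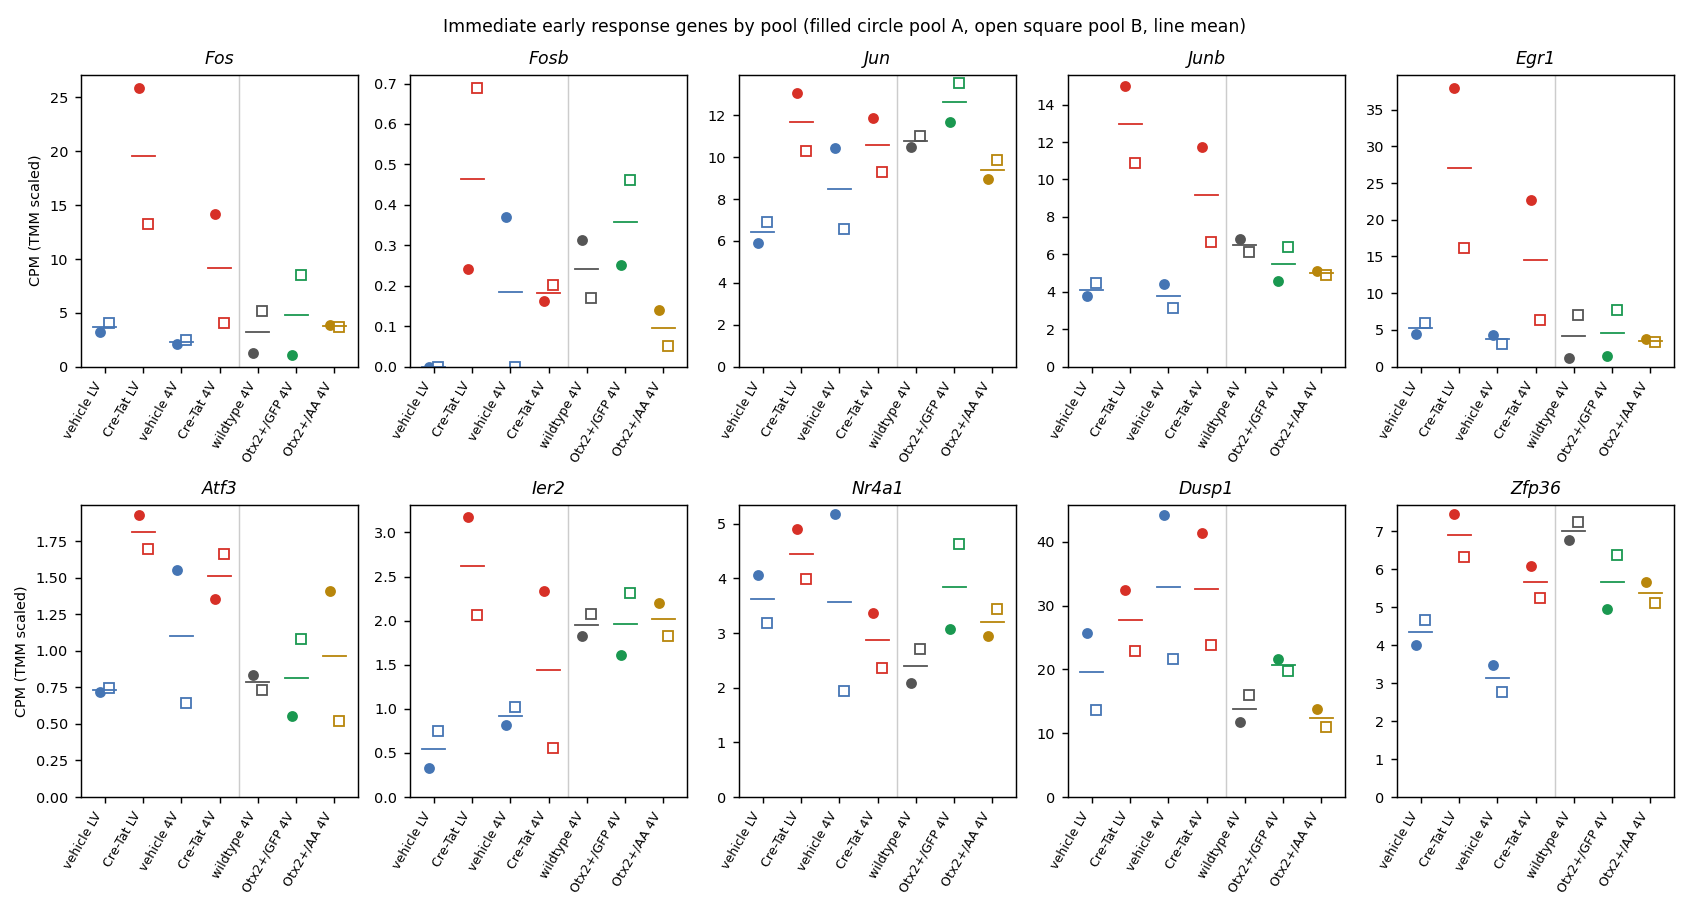
Level of each member in the 14 pools, in CPM scaled with TMM factors (vertical axis, starting at 0, with its own scale for each gene), for the 7 groups (horizontal axis). Filled circles are pools A, open squares pools B and lines group means; the grey line parts the conditional from the constitutive model. *Fos* and *Egr1* reach 25.9 and 37.9 CPM in Cre-Tat LV pool A, and their pools lie far apart in every group with a high pool.

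In 4V ChP, *Fos*, *Egr1* and *Junb* rose in the pools labelled Cre-Tat, by 3.96-fold, 3.86-fold and 2.40-fold. These are 3 of 9 members tested, with 0 lower, where 5.7% of the 14550 genes tested were called higher and 4.98% lower. The median log2 fold change was 0.66 over the 9 members and 0.01 over all genes. Both Cre-Tat pools lay above both vehicle pools in 4 members, *Zfp36* besides these 3; of the 14624 genes, 25.1% did so. All 3 calls depended on 1 pool: without Cre-Tat pool A, 0 members passed, and the log2 fold changes were 0.81, 0.74 and 0.79 (adjusted p = 0.188, 0.118 and 0.0801, edgeR).

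*Fos* had 2.15 and 2.49 CPM in the vehicle-labelled pools A and B of 4V and 14.2 and 4.08 CPM in those labelled Cre-Tat. The groups did not overlap, but Cre-Tat pool A was 3.49 times pool B, nearly the size of the difference between groups. Its log2 fold change was 1.99 ± 0.44 (SE, edgeR, adjusted p = 0.00618). *Egr1* had 4.29 and 3.14 CPM against 22.7 and 6.29 CPM, with pool A 3.60 times pool B. Its log2 fold change was 1.95 ± 0.42 (SE, edgeR, adjusted p = 0.00514). *Junb* was steadier, with 4.44 and 3.14 CPM against 11.7 and 6.65 CPM, a log2 fold change of 1.26 ± 0.29 (SE, edgeR, adjusted p = 0.00758). The DESeq2 Wald test, which weighs the spread of a single gene in another way, kept only *Junb* (adjusted p = 0.181 for *Fos* and 0.211 for *Egr1*).

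*Zfp36*, whose product destabilises messages such as those of cytokines, had 3.48 and 2.77 CPM against 6.08 and 5.24 CPM in 4V. The pools of each group lay close together and the groups apart, with a log2 fold change of 0.85 ± 0.27 (SE, edgeR, adjusted p = 0.0522), and 4 of the alternative settings put it past the threshold. *Ier2* had 0.815 and 1.02 CPM against 2.33 and 0.554 CPM, so that its Cre-Tat pools lay on either side of the vehicle pools. *Jun* had 10.4 and 6.55 CPM against 11.9 and 9.32 CPM, and *Atf3* 1.56 and 0.646 CPM against 1.36 and 1.66 CPM. In both, the groups overlapped. *Nr4a1* had 5.18 and 1.94 CPM against 3.36 and 2.37 CPM, and *Dusp1* 44.1 and 21.7 CPM against 41.4 and 23.8 CPM. In both genes the groups overlapped, with pool A above pool B in each, and for *Dusp1* the log2 fold change was −0.02 (95% interval −0.53 to 0.49). *Fosb* had 5 and 0 counts against 3 and 4.

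These fold changes were set with TMM scaling, which put the median of all genes near 0. With total counts in its place, log2 fold changes of Cre-Tat against vehicle lay 0.17 higher in LV and 0.14 higher in 4V. Calls over all genes were then 396 higher and 48 lower in LV (331 and 155 with TMM) and 1316 higher and 426 lower in 4V (829 and 725). The 5 members called in LV and the 3 in 4V kept their direction and call under both scalings, and *Zfp36* joined them in 4V at 0.99.

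**Figure D2:**
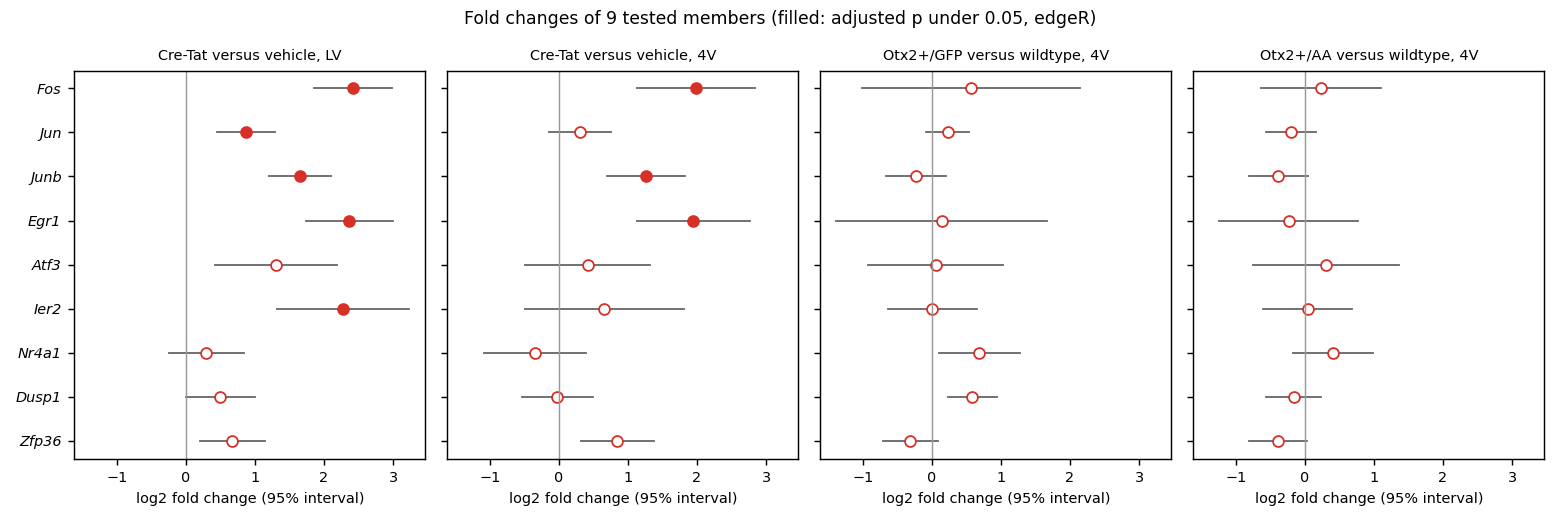
Log2 fold change (horizontal axis) of the 9 members tested (vertical axis) in the comparisons with vehicle or wildtype pools, with bars for the 95% interval from edgeR's standard error. Filled points passed an adjusted p of 0.05: 5 members in LV and 3 in 4V of the conditional model, and 0 in both comparisons of the constitutive model, where the intervals of *Fos* and *Egr1* in Otx2+/GFP are the widest drawn.

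Whether the difference between Cre-Tat and vehicle itself differed between ventricles was tested over the 8 pools. No member passed (0 of 9, where 0.00642% of 15565 genes did), with 0 of 9 at an unadjusted p under 0.05 by edgeR and 0 past the threshold by DESeq2. The extra log2 change in LV over 4V was largest in *Ier2*, at 1.62 (95% interval −0.09 to 3.33), and it was 0.44 for *Fos* (−0.87 to 1.76) and 0.43 for *Egr1* (−0.94 to 1.79). All 3 intervals hold 0 and reach well above it, so a larger change in LV was not detectable with these pools.

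Between the ventricles, no member passed in the vehicle pools (0 of 9, where 7.44% of genes did) or in the Cre-Tat pools (0 of 9, where 5.87% did). At an unadjusted p under 0.05, edgeR gave 1 of 9 and 3 of 9. LV and 4V ChP were extracted separately from the injected mice, so their pools may hold tissue of the same mice, while the fit takes the 4 pools as independent. The sources used here do not say whether pools of the same letter hold the same mice. With the letter as a replicate block, *Dusp1* passed in the vehicle pools (log2 difference −0.73, adjusted p = 4.5e-05, edgeR) and *Fos* and *Egr1* in the Cre-Tat pools (1.24 and 1.02, adjusted p = 3.9e-06 and 0.000249, edgeR). The block also raised the calls over all genes, from 1083 to 2288 in the vehicle pools and from 887 to 1177 in the Cre-Tat pools. *Dusp1* was 19.7 CPM ± 8.60 (SD) in LV and 32.9 ± 15.9 in 4V of the vehicle pools, a log2 difference of −0.75 (edgeR, adjusted p = 0.151). It passed without LV pool A (−1.31) and without 4V pool B (−1.17). In the Cre-Tat pools, *Fos* was 19.6 CPM ± 8.94 in LV and 9.15 ± 7.17 in 4V, a log2 difference of 1.11 (edgeR, adjusted p = 0.0907). Without 4V pool A that became 2.26, and *Egr1* and *Ier2* (2.10 and 2.23) and *Junb* (0.96) passed as well, while without LV pool B *Fos*, *Egr1* and *Junb* passed (1.51, 1.397 and 0.72).

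In the constitutive model, no member passed the test between Otx2+/GFP and wildtype (0 of 9, where 3.53% of 14573 genes did), with 2 of 9 at an unadjusted p under 0.05 by edgeR and 0 past the threshold by DESeq2. *Fos* had 1.30 and 5.17 CPM in wildtype pools A and B and 1.11 and 8.47 CPM in Otx2+/GFP. *Egr1* had 1.25 and 7.08 CPM against 1.51 and 7.65 CPM. In both genes pool B was 3.97 to 7.63 times pool A within each genotype, and the genotypes overlapped. The log2 fold changes were 0.57 (95% interval −1.01 to 2.15) for *Fos* and 0.14 (−1.38 to 1.67) for *Egr1*. The change of *Fos* called in 4V of the conditional model (1.99) lies inside its interval, and that of *Egr1* (1.95) lies above it. These intervals span 1.96 standard errors to each side, which is narrower than the edgeR test allows. A change of that size in *Egr1* is therefore not excluded. Without wildtype pool B the log2 fold changes of *Fos* and *Egr1* were 1.86 and 1.86, and that of *Dusp1* was 0.82. Without Otx2+/GFP pool B those of *Fos* and *Egr1* were −1.52 and −1.44, so the direction of both genes changed with the pool left out.

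*Dusp1* had 11.7 and 15.9 CPM in wildtype and 21.6 and 19.7 CPM in Otx2+/GFP, without overlap. Its log2 fold change was 0.59 ± 0.18 (SE, edgeR, adjusted p = 0.126). *Nr4a1* had 2.09 and 2.70 CPM against 3.08 and 4.62 CPM, also without overlap, with a log2 fold change of 0.69 (edgeR, adjusted p = 0.268). *Jun* had 10.5 and 11.02 CPM against 11.7 and 13.6 CPM, a log2 fold change of 0.23 (95% interval −0.08 to 0.55). *Zfp36* had 6.78 and 7.25 CPM against 4.95 and 6.37 CPM, so that its Otx2+/GFP pools lay below both wildtype pools (log2 fold change −0.31, 95% interval −0.71 to 0.09). In the remaining members the groups overlapped. *Junb* had 6.83 and 6.13 CPM against 4.59 and 6.42 CPM. *Ier2* had 1.83 and 2.08 CPM against 1.61 and 2.31 CPM, and *Atf3* 0.835 and 0.731 CPM against 0.555 and 1.08 CPM. *Fosb* had 6 and 3 counts in wildtype and 5 and 9 in Otx2+/GFP.

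Between Otx2+/AA and wildtype, no member passed either (0 of 9, where 0.345% of 14494 genes did), with 0 of 9 at an unadjusted p under 0.05 by edgeR and 0 past the threshold by DESeq2. The Otx2+/AA pools lay close together in *Fos* (3.89 and 3.70 CPM), *Egr1* (3.75 and 3.34 CPM) and *Junb* (5.11 and 4.90 CPM). For *Fos* and *Egr1* both lay between wildtype pools A and B, and for *Junb* below both. *Jun* had 8.95 and 9.85 CPM and *Zfp36* 5.67 and 5.11 CPM, below both wildtype pools, and *Nr4a1* had 2.95 and 3.44 CPM, above both. *Ier2* had 2.20 and 1.83 CPM and *Atf3* 1.41 and 0.521 CPM, overlapping wildtype. Log2 fold changes ran from −0.39 (*Zfp36*) to 0.41 (*Nr4a1*). Without wildtype pool B, *Fos* and *Egr1* passed at 1.53 and 1.49. These comparisons share the wildtype pools, and the next shares its pools with both. Between Otx2+/GFP and Otx2+/AA, *Dusp1* was higher in Otx2+/GFP, with 21.6 and 19.7 CPM against 13.9 and 10.9 CPM. This is 1 of 9 members, where 1.37% of 14578 genes were called higher, at a log2 fold change of 0.74 ± 0.18 (SE, edgeR, adjusted p = 0.0471). The call was lost without Otx2+/GFP pool A (0.67) or Otx2+/AA pool B (0.57), and in 4 other settings. Without Otx2+/GFP pool A, *Fos* and *Egr1* passed at 1.16 and 1.11, and without its pool B they passed in the other direction, at −1.76 and −1.22.

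The difference between the models was tested as the 4V change labelled Cre-Tat less the change of Otx2+/GFP. Strain, sequencing run and route of deletion differ along with the model and cannot be told apart. No member passed (0 of 9, where 1.64% of 15327 genes did), with 2 of 9 at an unadjusted p under 0.05 by edgeR and 0 past the threshold by DESeq2. *Junb* and *Zfp36* were the closest, with extra log2 changes of 1.49 ± 0.41 (SE, edgeR, adjusted p = 0.108) and 1.15 ± 0.32 (SE, edgeR, adjusted p = 0.116) in the edgeR fit over 8 pools. *Junb* passed without Cre-Tat 4V pool B (1.86). For *Fos* the value was 1.398 with an interval of −0.80 to 3.60.

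The 2 pools of a group differed more in these genes than in most. *Egr1* had a median absolute log2 ratio of pool A to pool B of 1.21 over the 7 groups (with 0.5 CPM added to both), and 5 of the 14624 genes with a mean of at least 10 counts had a larger one. *Fos* had 0.94, with 12 genes above it, *Dusp1* 0.49 with 506 and *Junb* 0.44 with 789. *Zfp36*, *Jun* and *Atf3* were ordinary, at 0.20, 0.21 and 0.22, where the median over all genes was 0.19. The differences also had a shared sign within a group. In Cre-Tat LV 9 of 9 members were higher in pool A and in Cre-Tat 4V 8 of 9, while in wildtype 7 of 9 and in Otx2+/GFP 8 of 9 were higher in pool B, where 48.5% to 51.0% of all genes in these 4 groups were higher in pool A. Members of one tissue pool are not independent, so these counts are a description.

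Runs of the same pool differed little beyond counting error. In the conditional model, each library was sequenced in 2 runs, and of 64 comparisons of a member's count between the runs of a pool (those with at least 20 counts), 3 differed by more than 1.96 standard errors of counting, or 4.69%. In Cre-Tat 4V the ratio of pool A to pool B was 3.49 for *Fos*, 3.60 for *Egr1* and 4.21 for *Ier2*, but 1.16 for *Zfp36*.

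**Figure D3:**
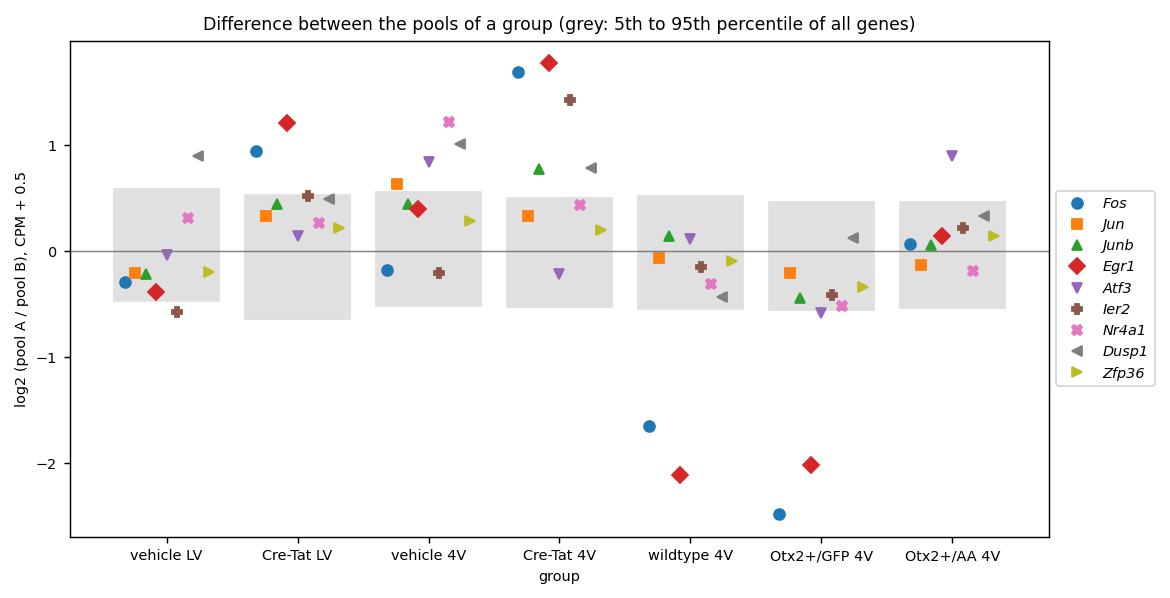
Log2 ratio of pool A to pool B (vertical axis, with 0.5 CPM added to both) in each group (horizontal axis) for 9 members, with grey boxes from the 5th to the 95th percentile of the 14624 genes. *Fos* and *Egr1* lie outside the boxes in 4 of the 7 groups, above them in both Cre-Tat groups and below them in wildtype and Otx2+/GFP.

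Members moved together over pools to different degrees. *Fos* and *Egr1* had a Pearson correlation of log2 CPM of 0.99 over the 8 pools of the conditional model and 0.97 over the 6 of the constitutive model. *Junb* went with *Zfp36* in both (0.94 and 0.91), but with *Fos* and *Egr1* in the conditional model (0.96 and 0.97) far more than in the constitutive one (0.27 and 0.24). *Dusp1* and *Nr4a1* stood apart from *Fos* in the conditional model, at 0.23 and 0.35. Over all 36 pairs of members, the median was 0.67 in the conditional and 0.34 in the constitutive model, and 31 of 36 were above 0 in the latter. The points share pools and libraries and, in the conditional model, the Cre-Tat difference itself, so these values are a description with few points.

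**Figure D4:**
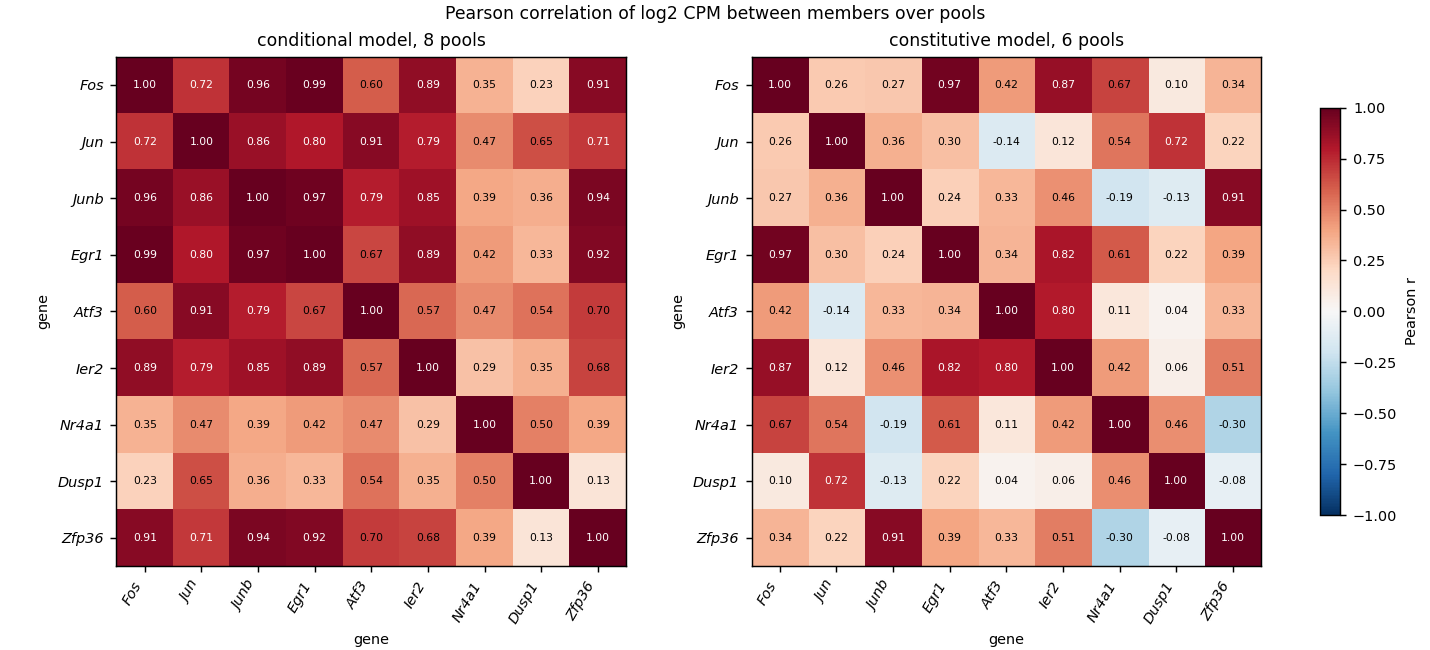
Pearson correlation of log2 CPM (colour and number, from −1 to 1) for each pair of the 9 members, over the 8 pools of the conditional model (left) and the 6 pools of the constitutive model (right). *Fos* and *Egr1* stay paired in both, at 0.99 and 0.97, while *Junb* falls from 0.96 to 0.27 with *Fos*.

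The profile most like the members' was sought among 14615 other genes, as the correlation with the mean of the members' log2 CPM over the 14 pools after centring each model. The 10 nearest were *Esrra* (0.92), a nuclear receptor of energy metabolism, *Anxa5* (0.92), a phospholipid-binding annexin, *1700024G13Rik* (0.91), *Cxcr6* (0.90), a chemokine receptor of lymphocytes, *Pifo* (0.89), a cilium gene, *Uckl1os* (0.89), *Capsl* (0.88), *1700028P14Rik* (0.88), *Hspa14* (0.88) and *Gm7984* (0.88). None is a classical immediate early gene, and the median over all genes was −0.01. *Cxcr6* and *Uckl1os* had means of 11.6 and 12.5 counts per pool, close to the least allowed. The ranges of the 10 genes varied. *Esrra* lay between 28.0 and 47.6 CPM, *Anxa5* between 59.6 and 118.4 and *Uckl1os* between 0.0522 and 2.43. *Fos* lay between 1.11 and 25.9 CPM. With 14 points and 14615 genes, high values arise readily, and they are given as a description.

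Of 34 related early genes, 29 were tested in LV ChP. Over all genes tested, 2.21% were called higher and 1.03% lower in LV, and 5.7% and 4.98% in 4V. *Sik1*, a kinase that restrains CREB signalling, and *Jund*, a steady AP-1 subunit, rose (log2 fold changes 0.90 and 0.69, adjusted p = 0.0221 and 0.0496, edgeR), and *Plk2*, a polo-like kinase, fell (−0.68, adjusted p = 0.0343). In 4V, 4 of 28 rose, *Sik1* (1.12), *Jund* (0.73), *Ier5* (0.75), a nuclear regulator of the stress response, and *Klf10* (0.59), a zinc finger factor of the TGF-beta response, and *Plk2* fell (−0.84). The medians over the list were 0.24 in LV and 0.13 in 4V, nearer to 0 than those of the members. Several of the inducible genes were hardly present: *Egr4*, *Npas4* and *Fosl1* had at most 2 counts in any pool, and *Egr3* at most 7. *Arc* had 5 to 47 counts per pool. Its log2 fold changes were 1.12 in LV and 1.26 in 4V (adjusted p = 0.289 and 0.243, edgeR). *Nr4a3*, a relative of *Nr4a1*, had 2.24 and 3.43 CPM in LV vehicle pools and 1.20 and 1.51 CPM in the Cre-Tat pools (−1.06, adjusted p = 0.186, edgeR). In Otx2+/GFP and Otx2+/AA against wildtype, 0 of 28 passed, where 3.53% and 0.345% of all genes tested did.

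Upstream of these genes, *Mapk10*, the JNK3 kinase, rose in both ventricles (log2 fold changes 1.61 in LV and 1.32 in 4V, adjusted p = 0.000386 and 4.49e-05, edgeR) and in Otx2+/GFP (1.33, adjusted p = 0.004). It was the 1 of 22 upstream regulators called in LV. In 4V *Srf*, the serum response factor, rose (0.52) and *Mapk9*, the JNK2 kinase, fell (−0.58), while *Creb1* and *Elk1*, which encode transcription factors, passed in neither ventricle. *Mapk9* also fell in Otx2+/GFP (−0.70). Of the feedback inhibitors, 0 of 15 passed in LV and 2 of 14 rose in 4V, *Zfp36l2* (0.89), a relative of *Zfp36*, and *Dusp14* (0.97), a MAP kinase phosphatase. Of the heat shock and stress genes, 0 of 17 passed in LV and 2 of 16 rose in 4V, *Dnajb1* (0.60), a cochaperone of HSP70, and *Ddit4* (1.08), an inhibitor of mTORC1. These counts stand beside 2.21% of all genes tested called higher in LV and 5.7% in 4V. The stress-inducible *Hspa1a* and *Hspa1b* had log2 fold changes of 0.77 and 0.55 in LV (adjusted p = 0.621 and 0.8) and 0.14 and 0.42 in 4V (0.898 and 0.605), edgeR.

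Markers of cell types also moved with the Cre-Tat label. The shares over all genes tested were 2.21% higher and 1.03% lower in LV, and 5.7% and 4.98% in 4V. The 6 epithelial markers summed to 41660 to 42330 CPM in the LV vehicle pools and 26750 to 27990 CPM in the LV Cre-Tat pools, and to 43360 to 48020 against 23080 to 23930 CPM in 4V, with 3 of 6 lower in LV and 6 of 6 in 4V. The 6 macrophage markers summed to 48.4 to 53.3 against 74.4 to 82.8 CPM in LV and 33.4 to 35.5 against 57.4 to 71.1 CPM in 4V. Of these, *Ptprc*, the leukocyte antigen CD45, rose in LV, and *Ptprc*, *Mrc1*, *Csf1r* and *Aif1* rose in 4V. The 3 ependymal markers went from 97.9 to 103 CPM up to 153 to 179 CPM in LV and from 99.5 to 121 CPM up to 205 to 206 CPM in 4V, where *Foxj1*, a factor of motile cilia, was the 1 of 2 tested that rose in each. Endothelial, mural, fibroblast and neuronal lists had 0 of 6, 0 of 5, 0 of 5 and 1 of 3 (*Snap25*) called higher in LV and 1 of 6 (*Plvap*), 0 of 5, 0 of 5 and 0 of 2 in 4V, with *Pdgfra* lower in both ventricles and *Syt1* lower in 4V. Hemoglobin and *Alas2* summed to at most 9.12 CPM in any pool, reached in Cre-Tat LV, and *Hba-a1* and *Hbb-bt* were at 0 in the vehicle pools of both ventricles. In bulk RNA, more cells of a type and more RNA per cell cannot be told apart, and the part of cell makeup in the members' differences was not tested.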

How the data were processed

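The deposited files hold whole-number read counts per Ensembl transcript, not normalized. According to the submitters' processing notes, the tools were bcl2fastq 1.8.4, Bowtie 0.12.9, SAMtools, HTSeq 0.5.3 and DESeq 1.8.3. Libraries were described by the labels as ribosomal RNA depleted and strand-specific, and elsewhere by the study as poly(A) selected. Reads were 50 bases long.

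Of 95533 transcripts, 82807 were named through GENCODE vM21, with 89.5% of the counts, and 12726 had no match and were left out. Each of 33984 genes was represented by its transcript with most counts. Files of the conditional model were joined to pools by library number and both runs summed. Groups of 2 pools were compared with edgeR 4.0.16 (R 4.3.3; filterByExpr with a minimum count of 10, TMM factors, quasi-likelihood test, Benjamini-Hochberg threshold 0.05), each over the pools compared, and both interactions over 8 pools. Intervals of fold changes are nominal 95% intervals, 1.96 of edgeR's standard errors to each side, and are narrower than the quasi-likelihood test allows. *Dusp1* in LV, for example, had an interval of 0.001 to 0.995 but an unadjusted p of 0.0694 by edgeR. With 2 pools a side, the smallest p of an exact permutation test is 0.333, so none was used. P-values set a difference against the spread between these pools, where the fit draws the spread of each gene toward that of the other genes. The scripts were tested on simulated counts. Figures used matplotlib 3.10.9.

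Alternatives were DESeq2 1.42.0, other scalings, filters, transcript sums and joins, a fit over all groups of a run, a pool block, and leaving out each pool. The members and gene lists were chosen with earlier results of these data known. All 10 members are named, and from the related lists those past the threshold, a few others being named after their values were seen.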

Additional observations from a re-analysis of the deposited data

How the results depend on the processing

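Of the alternatives to the members' log2 fold changes, 928 kept direction and call, 72 changed sign without passing the threshold in either fit, 21 lost the call, 43 gained one and 13 reversed with a call in at least one of the fits. The number of members past the threshold in LV (5) fell to 3 with counts summed over transcripts, was 4 with DESeq2 or all groups in 1 fit, and 6 without a filter. Calls over all genes in LV were 441 with transcript sums, 537 with DESeq2 and 595 with all groups in 1 fit, against 486. In 4V (3) the number of members was 1 with DESeq2, which called 1149 genes in all, against 1554. For Otx2+/GFP against Otx2+/AA (1) it was 0 with total counts, without a filter, with all groups in 1 fit and with transcript sums. Calls over all genes there were 477, 398, 333 and 248 in that order, against 393. Without a filter the number of members was 1 between vehicle ventricles, 2 between Cre-Tat ventricles (1 with total counts) and 4 for the difference between models, against 0 with it. Calls over all genes in these 3 comparisons were 1840, 1351 and 627 without a filter, against 1083, 887 and 252 with it. In LV they were 874 against 486. With total counts, 1533 genes in all were called between Cre-Tat ventricles. Leaving out a pool changed the number of members past the threshold in every comparison except treatment by ventricle. Calls over all genes changed as well. The remaining pool of a group is then assumed to vary like the others. Fold changes that reversed on leaving out a pool and passed the threshold were *Egr1* in Otx2+/AA (1.49 without wildtype pool B, −1.01 and uncalled without wildtype pool A) and *Fos* and *Egr1* between Otx2+/GFP and Otx2+/AA (−1.76 and −1.22 without Otx2+/GFP pool B, 1.16 and 1.11 without its pool A). Leaving out a pool also accounts for 47 of the 72 sign changes without a call, such as *Fos* and *Egr1* in Otx2+/GFP against wildtype (−1.52 and −1.44 without Otx2+/GFP pool B). The cause was not tested. Of the 13 reversals, 10 came with files as attached to the sample records.

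With files as attached to the sample records, pools A and B become runs of the same libraries, and their spread shrinks by construction. Each pool then also adds files that differed by 13.2 to 20.5 times the sampling noise. Members called were 3 in LV and 6 in 4V, where 6709 and 8742 genes in all were called (486 and 1554 with the join by library number). They were 7 and 4 between vehicle and Cre-Tat ventricles (4718 and 4809 genes in all). For the treatment by ventricle difference they were 2 (5258 genes) and between models 2 (4688 genes). Because libraries are mixed within a pool, the log2 fold changes of this join do not test the directions given above. Those reversed were *Jun* (−0.20) and *Dusp1* (−0.53) in LV and *Nr4a1* in 4V (0.70). Between vehicle ventricles they were *Jun* (0.44), *Ier2* (1.24), *Nr4a1* (0.91) and *Dusp1* (0.89). *Dusp1* between Cre-Tat ventricles (0.68) reversed too, as did *Fos* (−0.56) and *Egr1* (−0.52) for treatment by ventricle.

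The sources used here do not say whether pools of the same letter in LV and 4V hold the same mice. Deviations of same-letter pools correlated at 0.07 between LV and 4V in the vehicle pools and at 0.06 in the Cre-Tat pools. Between groups of different mice they correlated at −0.13 for Cre-Tat against vehicle in LV and 0.15 in 4V. For Otx2+/GFP against wildtype the value was 0.36. With the letter as a replicate block, members called were 5 in LV, 4 in 4V, 1 for Otx2+/GFP against wildtype, and 1 and 2 between vehicle and Cre-Tat ventricles. Over all genes the block gave 3114 calls in 4V (1554 without it) and 2539 for Otx2+/GFP (515). It gave 622 in LV (486), 2288 between vehicle ventricles (1083) and 1177 between Cre-Tat ventricles (887). Crossing the letters in LV, chosen after seeing the data, gave 1012 calls (486) and the same number of members, 5. No block was fitted between models, where the letters belong to unrelated pools.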
